A study of Mus musculus with 9 samples.

Results

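Genes of cytokine feedback in blood cells were followed across the arrays, 10 in number: the feedback inhibitors Cish, Socs1, Socs2 and Socs3, the survival kinases Pim1, Pim2 and Pim3, and the transcription factors Stat3, Stat5a and Stat5b. All probe sets annotated to these 10 genes were taken, which gave 20 of the 22690 probe sets on the array and 10 of its 12394 named genes. A probe set is a group of short probes that together read 1 transcript or part of it. Of the 20 probe sets, 13 were bright enough to be tested, and they covered 8 genes; Socs1 and Pim2 were too dim. Each gene is represented below by whichever of its probe sets was brightest on average, and the other probe sets are given beside it.

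RNA was measured on 9 Affymetrix mouse arrays, 3 for each of 3 kinds of cell sorted in the setting of MLL-AF9 leukemia. L-GMP-derived cells were grown in vitro from L-GMP. L-GMP are cells resembling granulocyte-macrophage progenitors that were isolated from leukemic bone marrow, in a series on transformation by the fusion protein MLL-AF9. GMP are normal granulocyte-macrophage progenitors of bone marrow. The L-GMP-derived arrays carry a code as their title and L-GMP as their source, and they were assigned to the cultured kind because the design text names it and no other label matches it. The labels give no strain, age, promoter, culture medium or added cytokine for any group, nor do they tell whether replicate arrays stem from different mice or different cultures. The p-values therefore rest on the scatter among these arrays alone, part of which may be technical.

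Cytokines such as interleukin-3, GM-CSF and interleukin-6 bind receptors that switch on JAK kinases, and these phosphorylate STAT proteins, which enter the nucleus and turn on target genes. Cish and the Socs genes are among those targets, and their proteins bind the receptors or the JAKs and damp the signal, so that their RNA is often read as a trace of recent signaling. The Pim genes are also STAT targets, but they encode serine/threonine kinases that are active once translated and favor survival and protein synthesis. In myeloid cells Cish and Pim1 are known targets of STAT5, and Socs3 is known as a target of STAT3.

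STAT dimers bind the element TTCNNNGAA, which reads the same on both strands, and this element was searched in the RefSeq promoter windows of the genes (build GRCm38.p6, 250 bases before to 50 bases after an annotated start). Windows were found for 9 of the 10 genes, 12 windows in all, and Socs2 had no entry. The windows of Cish, Socs3 and Pim1 are printed because these genes carry the results below, with every match in capitals. The Cish window lies at chr9:107296409-107296708 on the + strand, the Socs3 window at chr11:117969317-117969616 on the - strand, and the Pim1 window, the one at the upstream of its 2 starts, at chr17:29490535-29490834 on the + strand.
Cish: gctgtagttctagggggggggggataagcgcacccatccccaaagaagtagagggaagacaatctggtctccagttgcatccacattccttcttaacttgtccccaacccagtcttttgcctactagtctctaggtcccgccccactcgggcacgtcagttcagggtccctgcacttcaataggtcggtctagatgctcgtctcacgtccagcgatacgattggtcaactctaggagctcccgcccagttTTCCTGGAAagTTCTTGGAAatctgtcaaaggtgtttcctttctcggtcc
Socs3: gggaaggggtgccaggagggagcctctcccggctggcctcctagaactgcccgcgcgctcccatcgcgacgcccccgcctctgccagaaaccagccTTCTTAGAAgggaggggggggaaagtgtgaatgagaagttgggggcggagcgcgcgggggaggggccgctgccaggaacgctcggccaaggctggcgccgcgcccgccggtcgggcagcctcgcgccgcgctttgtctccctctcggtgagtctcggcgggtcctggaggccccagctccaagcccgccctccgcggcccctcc
Pim1: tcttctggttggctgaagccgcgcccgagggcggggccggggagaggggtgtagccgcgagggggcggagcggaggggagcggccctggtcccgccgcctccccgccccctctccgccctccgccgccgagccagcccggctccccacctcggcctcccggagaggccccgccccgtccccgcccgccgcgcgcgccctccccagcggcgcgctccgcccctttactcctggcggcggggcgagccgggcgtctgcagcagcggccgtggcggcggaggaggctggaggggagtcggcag
Cish held 2 matches, TTCCTGGAA at bases 1 to 9 and TTCTTGGAA at bases 12 to 20 counted from the start site. Socs3 held 1 match, TTCTTAGAA, at bases -154 to -146. The other 10 windows, both of Pim1 included, held none. Among all 32851 windows of this length 8.30% held at least 1 match and 0.457% held 2 or more. A match describes the letters of the window only, and no binding was measured here.

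Signals are on the authors' linear scale, where values below 62.4 were treated as a floor and raised to it before log2 was taken. The 9 arrays had median signals of 157 to 168. Arrays of 1 group correlated at 0.958 to 0.991 over the tested probe sets, against 0.898 to 0.928 between groups. L-GMP-derived replicate 1 stood apart from replicates 2 and 3, at 0.958 and 0.964 with them against 0.989 between those. Of the genes that define GMP, Kit had a mean signal of 93.9 in L-GMP-derived cells, against 657 in L-GMP and 816 in GMP, and Cd34 was at or below the floor on all 3 L-GMP-derived arrays. The granule enzyme gene Mpo averaged 1442 in L-GMP-derived cells, 6028 in L-GMP and 9366 in GMP, the receptor gene Csf1r 535, 4673 and 5767, and the granule protease gene Prtn3 7475, 7898 and 7908 in the same order. Of 10 tested genes of the GMP gate and granules, 4 were lower and 0 higher in L-GMP-derived cells than in GMP, and 6 were lower and 2 higher than in L-GMP. Among all probe sets, 10.4% were lower and 14% higher in L-GMP-derived cells than in GMP, and 13.5% and 16.4% than in L-GMP. Between L-GMP and GMP, 3 of the 10 were lower in L-GMP, Cebpa (3.47-fold) and Cd34 (1.95-fold) among them. There 2 were higher, Fcgr2b (1.73-fold) and Fcgr3 (1.54-fold), beside 12.6% lower and 13.4% higher of all. The Cd34 call was lost under 4 of 20 alternatives. The summed signal of 10 named mature macrophage and neutrophil markers was 1418 to 7871 in L-GMP-derived cells, 19489.9 to 32239 in L-GMP and 8532 to 19085 in GMP, and 4, 2 and 3 of the 10 were at or below the floor on all arrays of these groups. Of the 6 tested, 2 macrophage genes were higher in L-GMP-derived cells than in GMP, Adgre1 (984 against 375) and Cd68 (214 against 98.0), and 1 was lower. The call of Adgre1 was lost under 7 of 20 alternatives. Adgre1 (3072 against 375) and Cd68 (372 against 98.0) were also higher in L-GMP than in GMP, and 0 of the 6 were lower there. Against L-GMP 5 were lower in L-GMP-derived cells and 0 higher, beside 13.5% and 16.4% of all probe sets. The calls of S100a9 and S100a8 among these 5 were lost under 11 of 20 and 5 of 19 alternatives. Of 3 B cell, 6 T and NK cell, and 5 erythroid and megakaryocyte markers tested, 1 of each kind was lower in L-GMP-derived cells than in GMP, and 0, 1 and 0 were higher, the 1 being Thy1, which passed the filter through the L-GMP-derived arrays alone. The shares of all probe sets lower and higher there were 10.4% and 14%. These markers and the genes below were measured in the same bulk RNA, in which fewer cells of a type and less RNA per cell cannot be told apart, and the part of such cells in the results was not tested.

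Of the 8 genes tested, 5 passed an adjusted p of 0.05 between L-GMP-derived cells and L-GMP: Cish, Socs2, Socs3 and Pim1 were higher in L-GMP-derived cells and Stat3 was lower. Of all 14578 probe sets tested, 29.9% passed in that comparison, 16.4% higher and 13.5% lower in L-GMP-derived cells. Against GMP, 4 of the 8 passed, with Cish, Socs2 and Pim1 higher in L-GMP-derived cells and Pim3 lower, where 24.4% of all probe sets passed, 14% higher and 10.4% lower. Between L-GMP and GMP only Pim1 passed of the 8, lower in L-GMP, where 25.9% of all probe sets passed, 13.4% higher and 12.6% lower. Socs2 passed the filter through the L-GMP-derived arrays alone and so had to differ, and the counts of 8 carry no weight as a measure of the group of genes. The median log2 difference of the 8 genes was 0.73 for L-GMP-derived cells against L-GMP, -0.04 for L-GMP-derived cells against GMP and -0.20 for L-GMP against GMP, and the medians over all probe sets tested were -0.00, 0.01 and -0.00. These medians include Socs2 and carry no weight for the same reason. The value of 0.73 is the midpoint between Stat5b (0.04) and Socs2 (1.42, counted from the floor). Both comparisons with GMP share their GMP arrays, and both comparisons with L-GMP-derived cells share those arrays.

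**Figure D1:**
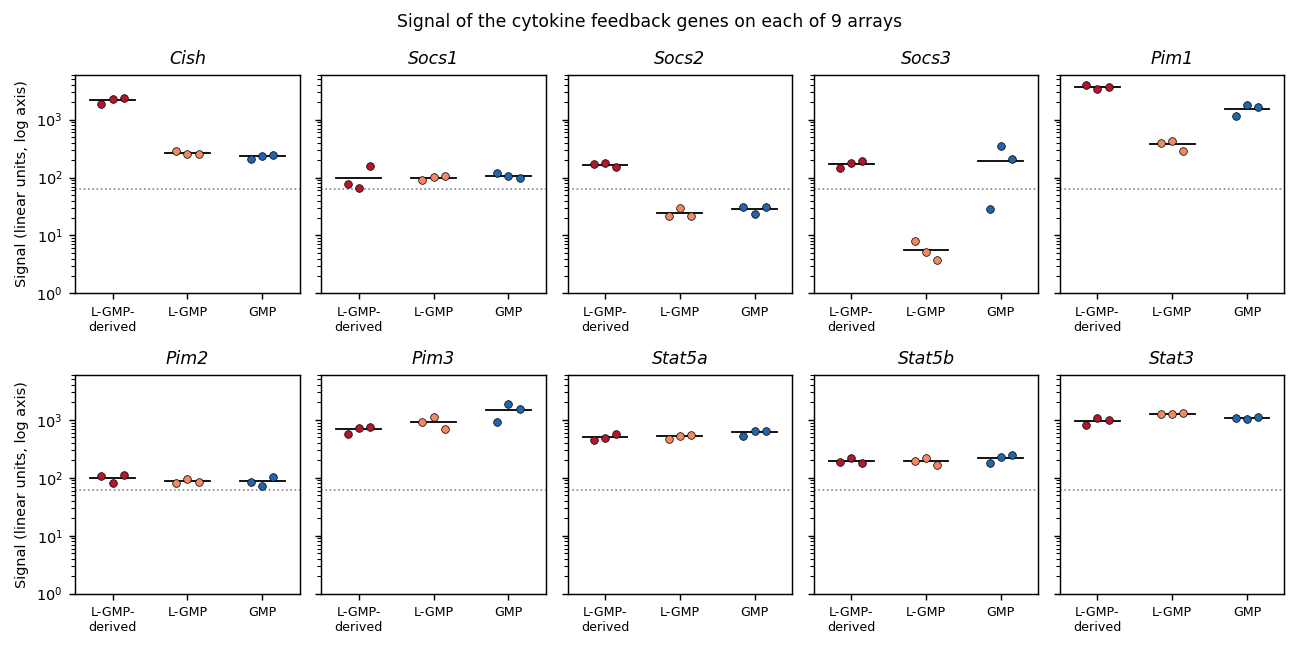
Signal of each of the 10 genes (linear units, drawn on a log axis) on the 3 L-GMP-derived, 3 L-GMP and 3 GMP arrays, for the probe set of highest mean signal; points are arrays, bars are group means and the dotted line is the floor of 62.4. Cish and Pim1 are highest on the L-GMP-derived arrays, Pim1 has 3 separate levels, Socs2 is above the floor on the L-GMP-derived arrays only, and Stat5a and Stat5b lie at similar heights in the 3 groups.

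Cish, whose SH2 protein binds activated cytokine receptors, showed the largest fitted difference from GMP among the 8 tested genes. Its signal was 1838, 2225 and 2396 on the L-GMP-derived arrays, against 289.8, 254 and 254 on the L-GMP arrays and 209.5, 234 and 249 on the GMP arrays. Every L-GMP-derived array lay far above every other array, and the L-GMP arrays lay just above the GMP arrays without overlap. The group means were 2153 ± 285 in L-GMP-derived cells, 266 ± 20.9 in L-GMP and 231 ± 19.9 in GMP (mean ± SD, n = 3 each). Cish was 8.07-fold higher in L-GMP-derived cells than in L-GMP (log2 fold change 3.01 ± 0.13 SE, adjusted p = 3.14e-07, limma), and 9.29-fold higher than in GMP (3.22 ± 0.13 SE, adjusted p = 1.26e-07, limma). The difference between L-GMP and GMP was 0.20 on the log2 scale, with a 95% interval of -0.09 to 0.50 (adjusted p = 0.308, limma), so these neighbors in the order were not separated by the test. Without L-GMP-derived replicate 1, the lowest of its group, the log2 differences of L-GMP-derived cells were 3.12 from L-GMP and 3.33 from GMP. The promoter window of Cish is the one printed above with 2 matches of the STAT element.

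Socs2, another SH2 protein that carries a SOCS box and limits growth hormone and related signals, was detected above the floor in L-GMP-derived cells alone. The probe set that represents it read 170.3, 178 and 153 on the L-GMP-derived arrays, against 21.4, 30.03 and 21.4 on the L-GMP arrays and 30.7, 23.0 and 31.2 on the GMP arrays. All 6 arrays of L-GMP and GMP were below the floor, so no fold between those groups can be given. Its signal in L-GMP-derived cells was at least 2.67 times that in L-GMP and in GMP, counted from the floor. A second probe set of the gene read 179, 118 and 122 on the L-GMP-derived arrays and at most 49.4 on the others, at least 2.20-fold by the same count. Both probe sets passed the filter on low values through the L-GMP-derived arrays alone, which fixed the direction of their differences, so these values are a description and no p-value is given. The representing probe set belongs to a class that may also bind related transcripts, and the second does not.

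Socs3, which blocks JAKs bound to the interleukin-6 and G-CSF receptors, was low in L-GMP and uneven in GMP. The representing probe set read 145, 181 and 196 on the L-GMP-derived arrays, against 8.07, 5.18 and 3.81 on the L-GMP arrays and 28.4, 352 and 208 on the GMP arrays. All L-GMP arrays were below the floor and below every other array, and GMP replicate 1 was below the floor too, while GMP replicates 2 and 3 were higher than any L-GMP-derived array. Socs3 was at least 2.76-fold higher in L-GMP-derived cells than in L-GMP (log2 fold change 1.47 ± 0.48 SE, adjusted p = 0.0405, limma). The call rests on this probe set, which is of the class that may also bind related transcripts. That call did not hold under 10 of 19 alternatives, with adjusted p-values from 0.000737 to 0.177. Among them are the omission of any 1 of the 3 L-GMP arrays (0.0863 to 0.0972), of L-GMP-derived replicate 2 or 3 (0.096 and 0.112) and of GMP replicate 3 (0.0538).

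Between L-GMP and GMP the log2 difference of Socs3 was -1.41 (95% interval -2.47 to -0.35, adjusted p = 0.0532, limma), just outside the threshold. Without GMP replicate 1 it was -2.11 with an adjusted p of 0.000292. Between L-GMP-derived cells and GMP it was 0.06 ± 0.48 SE (adjusted p = 0.947), and it was -0.65 when GMP replicate 1 was left out (adjusted p = 0.0779). A second Socs3 probe set read 95.7, 81.5 and 108 on the L-GMP-derived arrays, against 86.9, 138 and 97.4 on the L-GMP arrays and 107, 189.6 and 125 on the GMP arrays. On it all groups overlapped and no comparison passed, so the low level of L-GMP was not seen by this probe set. The third was not tested, and it read -6.49, -3.58 and 7.34 on the L-GMP arrays and 26.3 to 58.8 on the L-GMP-derived arrays.

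Socs1, the inhibitor of interferon signals, was too dim to be tested. It read 76.0, 66.2 and 155 on the L-GMP-derived arrays, against 89.99, 101 and 105 on the L-GMP arrays and 117, 106 and 99.0 on the GMP arrays. The groups overlapped in every pair, and the widest spread was among the L-GMP-derived arrays.

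**Figure D2:**
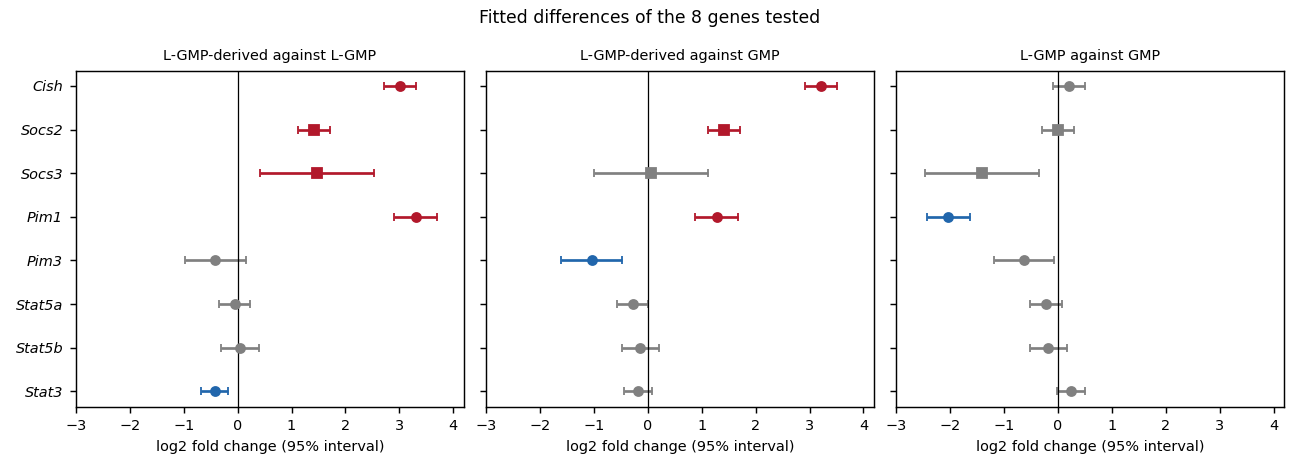
Fitted log2 fold changes of the 8 tested genes with 95% intervals, in 3 panels for L-GMP-derived cells against L-GMP, L-GMP-derived cells against GMP, and L-GMP against GMP; red marks genes higher and blue marks genes lower at an adjusted p of 0.05, grey the rest, and squares mark genes with 1 or more arrays of the lower group at the floor. Cish and Pim1 stand at 3.01 and 3.31 in the first panel, and Pim1 stands at -2.03 in the last, where no other gene passed.

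Pim1, the best known of the survival kinases, was the gene with 3 separate levels. The representing probe set read 3917, 3425 and 3632 on the L-GMP-derived arrays, against 398, 432 and 292 on the L-GMP arrays and 1172, 1783 and 1639 on the GMP arrays. No 2 groups overlapped: the L-GMP-derived arrays were the highest, the GMP arrays in between and the L-GMP arrays the lowest. The means were 3658 ± 247 in L-GMP-derived cells, 374 ± 73.3 in L-GMP and 1531 ± 319 in GMP (mean ± SD, n = 3 each). Pim1 was 9.90-fold higher in L-GMP-derived cells than in L-GMP (log2 fold change 3.31 ± 0.18 SE, adjusted p = 9.77e-07, limma) and 2.42-fold higher than in GMP (1.28 ± 0.18 SE, adjusted p = 0.000605, limma). In L-GMP it was lower than in GMP by 2.03 on the log2 scale, with an adjusted p of 2.62e-05. All 3 calls held under all 21 alternatives tried. Neither of its promoter windows held a match of the STAT element.

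A second Pim1 probe set did not show these levels. It read 833, 811 and 827 on the L-GMP-derived arrays, against 842, 842 and 839 on the L-GMP arrays and 769.8, 886 and 745 on the GMP arrays. The GMP arrays spanned all the others, and no comparison passed: the 95% intervals were -0.26 to 0.20 for L-GMP-derived cells against L-GMP, -0.19 to 0.28 against GMP and -0.15 to 0.31 for L-GMP against GMP. The part of the transcript that each probe set reads is not known here. With the mean over both probe sets Pim1 passed in all 3 comparisons, at log2 differences of 1.64, 0.66 and -0.98. Since the second probe set was nearly flat, these differences come from the representing one, and the second adds nothing to them. The ratio of 3′ to 5′ probe sets of the control gene beta-actin, a measure of how complete the labeled RNA was, averaged 7.10 ± 0.140, 5.17 ± 0.355 and 7.37 ± 0.648 for L-GMP-derived cells, L-GMP and GMP (SD, n = 3 each). For the control gene Gapdh the same ratio averaged 7.21 ± 1.78, 8.09 ± 3.05 and 7.86 ± 0.855. L-GMP, the group lowest for Pim1, had the lowest mean beta-actin ratio. Its mean Gapdh ratio was the highest, but its arrays spanned 6.17 to 11.6 and overlapped with both other groups. Ratios of 3′ probe sets to those at the middle of the transcript were also taken. In L-GMP, L-GMP-derived cells and GMP, that of beta-actin averaged 2.26, 3.01 and 4.23. Gapdh gave 1.85, 1.86 and 2.13 in the same order, and L-GMP overlapped with L-GMP-derived cells there. The part of RNA quality in the result was not tested.

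Pim3, a kinase of the same family, showed a different order. The representing probe set read 572, 735 and 745 on the L-GMP-derived arrays, against 925, 1134 and 706 on the L-GMP arrays and 934, 1903 and 1544 on the GMP arrays. The L-GMP-derived arrays lay below the GMP arrays without overlap, and the L-GMP arrays overlapped with both. Pim3 was 2.06-fold lower in L-GMP-derived cells than in GMP (log2 fold change -1.04 ± 0.25 SE, adjusted p = 0.0131, limma). The call rests on this probe set, which is of the class that may also bind related transcripts. It was lost when GMP replicate 2 or 3 was omitted (adjusted p = 0.0571 and 0.057) and when dim probe sets were kept (0.0668), and over all 20 alternatives the adjusted p ran from 0.000634 to 0.0668. Between L-GMP and GMP the log2 difference was -0.63 (interval -1.19 to -0.07, adjusted p = 0.0971), and it passed without GMP replicate 1 (-0.92, adjusted p = 0.0141). The difference between L-GMP-derived cells and L-GMP was -0.41 (interval -0.98 to 0.15, adjusted p = 0.257).

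A second Pim3 probe set read 149 to 152 on the L-GMP-derived arrays, against 144 to 182 on the L-GMP arrays and 167 to 202 on the GMP arrays. It was lowest in L-GMP-derived cells too but did not pass (log2 difference from GMP -0.26, interval -0.56 to 0.04). The third was too dim to be tested, at 26.5 to 34.4 on the L-GMP-derived arrays, against 35.6 to 52.6 on the L-GMP arrays and 55.0 to 78.3 on the GMP arrays, with no overlap. Pim2, the remaining member of the family, was not tested: it read 107, 82.6 and 114 on the L-GMP-derived arrays, against 81.5, 95.4 and 86.2 on the L-GMP arrays and 84.6, 73.2 and 105 on the GMP arrays. Its groups overlapped in every pair.

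**Figure D3:**
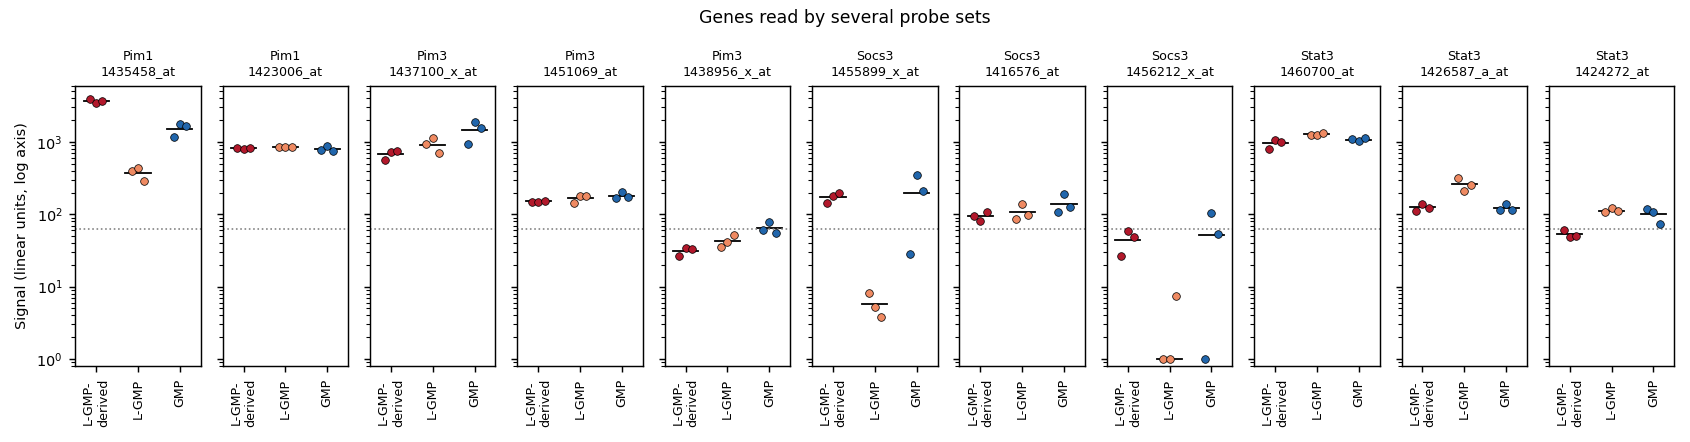
Signal (linear units, log axis) of all probe sets of Pim1, Pim3, Socs3 and Stat3 on each array, 3 L-GMP-derived, 3 L-GMP and 3 GMP; points are arrays, bars are group means, values below 1 are drawn at 1 and the dotted line is the floor of 62.4. The 2 Pim1 probe sets differ in pattern, with means of 3658 in L-GMP-derived cells, 374 in L-GMP and 1531 in GMP on the first, and 824, 841 and 800.3 in the same groups on the second.

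Differences between related genes were compared within each array, which removes a scaling factor shared by a whole array. The log2 signal of Pim1 minus that of Pim3 averaged 2.43 ± 0.30 in L-GMP-derived cells, -1.29 ± 0.09 in L-GMP and 0.11 ± 0.21 in GMP (mean ± SD, n = 3 each), and no 2 groups overlapped. The difference moved by 3.72 between L-GMP-derived cells and L-GMP, by 2.32 between L-GMP-derived cells and GMP and by -1.40 between L-GMP and GMP (exact two-sided permutation p = 0.1 each, the smallest that 3 against 3 arrays can give). The difference between Pim1 and Pim2 did not overlap between groups either, and moved by 3.11, 1.07 and -2.04 in the same order. Pim2 was too dim to be tested, at 73.2 to 114 on all arrays, so its difference from Pim1 largely repeats the change of Pim1. Both differences rest on the representing probe set of Pim1. The second Pim1 probe set, at means of 824 in L-GMP-derived cells, 841 in L-GMP and 800 in GMP, did not show its 3 levels. The difference between Cish and Socs2 could not be read in this way, since Socs2 was below the floor on every L-GMP and GMP array. Stat5a minus Stat5b moved by only -0.10, -0.15 and -0.05, its groups overlapped, and the exact permutation p-values were 0.5, 0.4 and 0.9.

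Stat5a and Stat5b encode closely related factors that carry interleukin-3 and GM-CSF signals. Stat5a read 445, 493 and 560.2 on the L-GMP-derived arrays, against 474, 532 and 549 on the L-GMP arrays and 537, 631 and 651 on the GMP arrays. Stat5b read 186, 221 and 184 on the L-GMP-derived arrays, against 196, 217 and 164 on the L-GMP arrays and 179.9, 229.6 and 243 on the GMP arrays. On these representing probe sets neither gene passed in any comparison, and the groups overlapped in every pair. The 95% interval for L-GMP-derived cells against GMP was -0.58 to 0.01 for Stat5a and -0.48 to 0.21 for Stat5b on the log2 scale, so a change of up to those sizes could not be told from none. Their other probe sets were too dim to be tested, at 49.8 to 103 for Stat5a and 42.3 to 118 for Stat5b. That of Stat5b read 42.3, 61.6 and 65.9 on the L-GMP-derived arrays, against 74.0, 70.2 and 118 on the L-GMP arrays and 64.7, 61.5 and 58.3 on the GMP arrays, so the L-GMP arrays lay above all others on it, near the floor.

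Stat3 was highest in L-GMP on both of its tested probe sets. The representing one read 812, 1076 and 987 on the L-GMP-derived arrays, against 1264, 1257 and 1319 on the L-GMP arrays and 1085, 1034 and 1125 on the GMP arrays. The L-GMP arrays lay above all others, and the L-GMP-derived and GMP arrays overlapped. Stat3 was 1.34-fold lower in L-GMP-derived cells than in L-GMP on it (log2 fold change -0.43 ± 0.12 SE, adjusted p = 0.0183, limma), a call that was lost without L-GMP replicate 3 (adjusted p = 0.0563) and with only the 6 arrays compared in the fit (0.0528), in a range of 0.00127 to 0.0595 over 21 alternatives. The difference between L-GMP and GMP was 0.24 on it (interval -0.01 to 0.50, adjusted p = 0.155), and it passed without L-GMP-derived replicate 1 (adjusted p = 0.0469).

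The second tested Stat3 probe set read 113, 141 and 124 on the L-GMP-derived arrays, against 317, 209.9 and 257 on the L-GMP arrays and 114, 137 and 115 on the GMP arrays. Again the L-GMP arrays lay above all the others and the remaining groups overlapped. On this probe set Stat3 was 2.06-fold lower in L-GMP-derived cells than in L-GMP (log2 fold change -1.04 ± 0.17 SE, adjusted p = 0.00108, limma) and 2.12-fold higher in L-GMP than in GMP (1.08 ± 0.17 SE, adjusted p = 0.000989, limma). Both calls held under all 19 alternatives. The third probe set was not tested and read 47.9 to 61.4 on the L-GMP-derived arrays, against 107 to 121 on the L-GMP arrays and 73.0 to 119 on the GMP arrays. L-GMP, the group highest for Stat3 on both tested probe sets, was the lowest for Pim1 on its representing probe set.

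Immediate early genes, which respond within minutes to signals and to handling of cells, and inducible heat shock genes differed widely between arrays of 1 group. The AP-1 subunit gene Fos read 2.40, 2.27 and -10.1 on the L-GMP-derived arrays, against 3037, 869 and 3985 on the L-GMP arrays and 1307, 6152 and 5691 on the GMP arrays. The heat shock gene Hspa1a read 16.7, 76.4 and 85.5 on the L-GMP-derived arrays, against 315, 89.1 and 182 on the L-GMP arrays and 1615, 6518 and 6423 on the GMP arrays. GMP replicate 1 was the lowest GMP array for Fos, Jun, Egr1, Dusp1, Zfp36, Hspa1a and Hspa1b, as it was for Cish, Socs3, Pim1, Pim3, Stat5a and Stat5b on their representing probe sets.

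Of 13 tested genes on the list of immediate early and heat shock genes, 7 were lower in L-GMP-derived cells than in GMP and 0 were higher, with a median log2 difference of -2.42, beside 10.4% lower and 14% higher of all probe sets. The counts were 5 lower and 0 higher against L-GMP (13.5% and 16.4% of all), and 2 lower and 0 higher for L-GMP against GMP (12.6% and 13.4% of all). The summed signal of all 16 was 6599.9 to 7284 in L-GMP-derived cells, 9636 to 17120.1 in L-GMP and 13702 to 47342 in GMP, and 5, 2 and 0 of them were at or below the floor on all arrays of these groups. The part of cell handling in the values of these feedback genes was not tested.

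**Figure D4:**
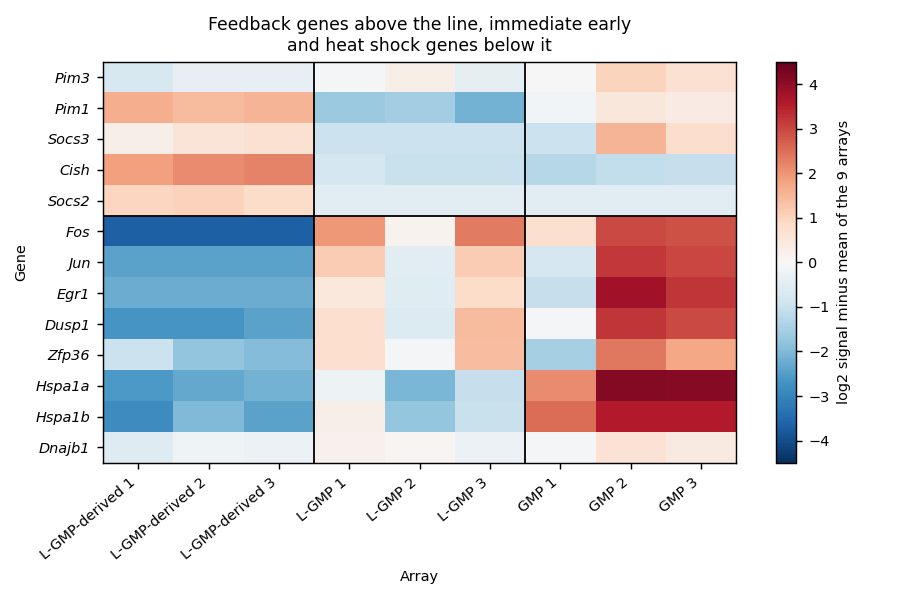
Log2 signal of 5 feedback genes (above the line) and 8 immediate early and heat shock genes (below it) on each array, minus the mean of that gene over the 9 arrays; columns are the L-GMP-derived, L-GMP and GMP arrays and color gives the deviation. GMP replicate 1 lies below GMP replicates 2 and 3 in the lower block and in the rows of Socs3 and Pim3. In the row of Socs3 it is blue, below the mean of the 9 arrays. The L-GMP-derived columns are blue in the lower block and red for Cish, Pim1 and Socs2.

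Among 11 tested cytokine receptor genes, 2 were higher and 1 lower in L-GMP-derived cells than in GMP, beside 14% and 10.4% of all probe sets. Csf2rb2, the mouse receptor chain specific to interleukin-3, had a signal of 504 ± 73.2 in L-GMP-derived cells and 445 ± 79.8 in L-GMP, against 147 ± 13.4 in GMP (mean ± SD, n = 3 each), 3.42-fold and 3.01-fold higher (adjusted p = 2.80e-05 and 5.81e-05, limma). Il6ra, the receptor for interleukin-6, had 259 ± 103 in L-GMP-derived cells and 557 ± 124 in L-GMP, against 1064 ± 90.8 in GMP, 4.30-fold and 1.94-fold lower. It was also 2.22-fold lower in L-GMP-derived cells than in L-GMP, one of 3 receptor genes that were lower there, with 0 higher, beside 13.5% and 16.4% of all. Csf2ra, the GM-CSF receptor chain, was higher in both L-GMP-derived cells and L-GMP than in GMP, by 1.18-fold and 1.54-fold, and the first of these calls was lost under 5 of 20 alternatives (adjusted p up to 0.206).

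Jak2, the kinase that the receptors for interleukin-3 and GM-CSF use, was lower in L-GMP-derived cells than in both other groups. Its signal was 416 ± 81.0 in L-GMP-derived cells, 869.9 ± 25.3 in L-GMP and 704 ± 77.7 in GMP (mean ± SD, n = 3 each). It was 2.12-fold lower in L-GMP-derived cells than in L-GMP (adjusted p = 0.000535, limma) and 1.71-fold lower than in GMP (adjusted p = 0.00492, limma). Of the 7 tested genes of JAKs and other STATs, 2 were lower in L-GMP-derived cells in each comparison, Jak2 and Stat4, and 0 were higher. Among all probe sets, 10.4% were lower and 14% higher against GMP, and 13.5% and 16.4% against L-GMP. The calls of Stat4 were lost under 13 of 19 alternatives against L-GMP (adjusted p = 0.0485, and 0.0379 to 0.154 under them) and under 4 of 19 against GMP. Between L-GMP and GMP 0 of the 7 passed, beside 25.9% of all probe sets. The largest differences there were those of Jak2 (log2 0.31, adjusted p = 0.175, limma) and Tyk2 (0.26, adjusted p = 0.112, limma).

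Of 7 tested SOCS box proteins and ligase partners other than the genes above, Socs5 was lower in L-GMP-derived cells and in L-GMP than in GMP, by 1.49-fold and 1.33-fold. Elob, the elongin B adaptor that binds SOCS boxes, was 1.24-fold higher in L-GMP-derived cells than in GMP and 1.21-fold higher than in L-GMP, calls that were lost under 5 and 9 of 20 alternatives (adjusted p up to 0.108 and 0.136). Of 12 tested negative regulators of other kinds, 4 were higher in L-GMP than in GMP and 0 lower: the ubiquitin ligase gene Cbl (1.75-fold), the phosphatase gene Ptpn6 (1.53-fold), the adaptor gene Dok1 (1.38-fold) and the phosphatase gene Ptprc (1.20-fold). Among all probe sets tested, 13.4% were higher and 12.6% lower there. Dok1 was lost under 6 of 19 alternatives (adjusted p up to 0.175). In L-GMP-derived cells the phosphatase gene Ptpn1 (1.71-fold) and Cbl (1.46-fold) were higher than in GMP, calls that were lost under 6 and 7 of 20 alternatives (adjusted p up to 0.0865 and 0.160). Against L-GMP, Pias1 was 1.43-fold lower in L-GMP-derived cells, and Pias4 was 1.29-fold higher, a call lost under 10 of 20 alternatives (adjusted p up to 0.126). Among all probe sets, 14% were higher and 10.4% lower in L-GMP-derived cells than in GMP, and 16.4% and 13.5% than in L-GMP.

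Other genes known as targets of STAT3 or STAT5 moved in both directions. Of 18 tested, 6 were higher and 2 lower in L-GMP-derived cells than in L-GMP, where 16.4% of all probe sets were higher and 13.5% lower, and the median log2 difference was 0.01. One of the 2 lower, Bcl6, passed the filter through the L-GMP arrays alone and so had to be lower. Against GMP 6 were higher and 4 lower in L-GMP-derived cells, beside 14% and 10.4% of all probe sets. Between L-GMP and GMP 4 were higher in L-GMP, Id1 and Ccnd3 among them, and 3 were lower, Ccnd2 and Myc among them, beside 13.4% and 12.6% of all probe sets. Cdkn1a, the cell cycle inhibitor p21, had a signal of 972 ± 324 in L-GMP-derived cells, 179 ± 6.96 in L-GMP and 138 ± 66.7 in GMP (mean ± SD, n = 3 each), and was 5.21-fold higher in L-GMP-derived cells than in L-GMP (adjusted p = 0.000564, limma) and 7.37-fold higher than in GMP (adjusted p = 0.000206, limma). Ccnd2, the cyclin D2 gene, was 3.94-fold higher in L-GMP-derived cells than in L-GMP and 4.28-fold lower than in GMP, with L-GMP-derived replicate 1 at 169.9 and the others of its group at 1009 and 1104. Without that replicate its log2 differences were 2.86 from L-GMP and -1.22 from GMP, and both calls were lost under 6 of 20 alternatives (adjusted p up to 0.113 and 0.138). Id1, an inhibitor of differentiation factors, was 3.04-fold higher in L-GMP-derived cells than in L-GMP and at least 11.4-fold higher than in GMP, while the AP-1 gene Junb was 2.54-fold lower in L-GMP-derived cells than in GMP.

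Of 10 tested genes whose proteins are Pim substrates, 2 were higher and 2 lower in L-GMP-derived cells than in L-GMP, beside 16.4% and 13.5% of all probe sets. Among these 4, the calls of Foxo3 (1.28-fold higher) and Numa1 (1.21-fold lower) were lost under 13 of 20 and 11 of 19 alternatives. Eif4ebp1, the brake on cap-dependent translation, had 3699.6 ± 639 in L-GMP-derived cells, 1773 ± 174 in L-GMP and 1898 ± 55.5 in GMP (mean ± SD, n = 3 each), 2.07-fold and 1.93-fold higher in L-GMP-derived cells. Cdkn1b, the cell cycle inhibitor p27, had 461 ± 26.3 in L-GMP-derived cells, 1104 ± 158 in L-GMP and 648 ± 23.7 in GMP. It was 2.38-fold lower in L-GMP-derived cells than in L-GMP (adjusted p = 5.86e-05, limma) and 1.69-fold higher in L-GMP than in GMP (adjusted p = 0.00149, limma). Against GMP it was 1.40-fold lower in L-GMP-derived cells (adjusted p = 0.0174, limma), a call lost under 4 of 20 alternatives (adjusted p up to 0.125). The order of the 3 group means for Cdkn1b was the reverse of that for Pim1 on its representing probe set, on RNA level only, since phosphorylation was not measured.

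**Figure D5:**
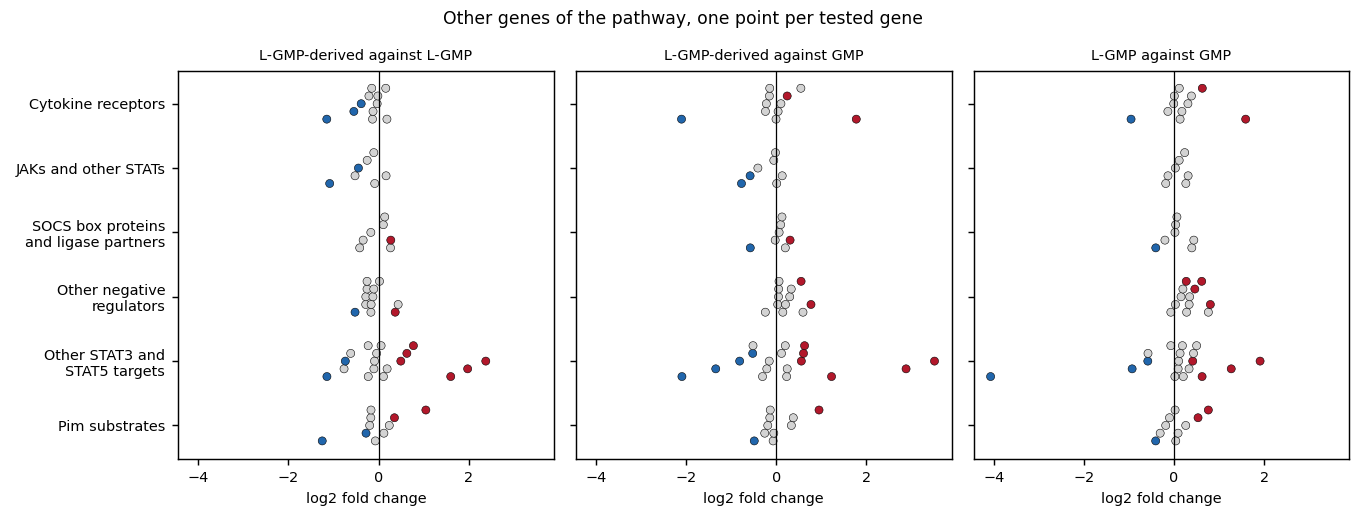
Log2 fold changes of the tested genes on 6 lists of the pathway (receptors, JAKs and other STATs, SOCS box proteins, other negative regulators, other STAT targets, Pim substrates), with 1 point per gene, in 3 panels for L-GMP-derived cells against L-GMP, L-GMP-derived cells against GMP, and L-GMP against GMP; red is higher and blue lower at an adjusted p of 0.05, grey the rest. Most points lie near 0 in each panel, the STAT target list has the widest spread, and the receptor list has 3 lower and 0 higher in the first panel.

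For the 5 genes whose group means differed by at least 1 on the log2 scale, the genes most like them over the 9 arrays were found by Pearson correlation of log2 signals. The 9 points share 3 groups, so r mostly reflects the group means. Cish was most like Mpnd (r = 0.996), the sterol synthesis gene Lss (0.995) and the sterol synthesis gene Msmo1 (0.995), and Socs2 was most like Mpnd (0.991), Akr1c13 (0.990) and the amino acid transporter gene Slc1a4 (0.989). Pim1 was most like the lectin gene Clec4d (0.993), Wdr4 (0.990) and Wdr74 (0.990). For Socs3 the highest were Nfkb2 (0.929), Foxo1 (0.925) and Add2 (0.908), and for Pim3 the heat shock gene Dnajb1 (0.970), Zfp46 (0.938) and Fem1a (0.934).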

How the data were processed

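RNA from about 50000 sorted cells (50 ng) per sample was hybridized to 1 array, per the labels' protocols. For every array the authors deposited linear intensities, 1 for each probe set; MAS5 (version 5) was used, per the submitters' processing notes. Their background correction and scaling are not known here. Of 204210 values 1917 are negative, and how negative values arose with MAS5 is not known here. Array trimmed means lay within 4.02% of their mean, so the scaling was kept. Groups came from titles and sources; a GMP array without a number was called replicate 1.

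Signals below the 25th percentile (62.4) were raised to it and log2 was taken, which understates folds of dim genes. A fold is written "at least" where an array of the lower group was at the floor. A probe set was tested if at least 3 of the 9 arrays read above the 40th percentile (111), and 64 control probe sets were left out. Tests were two-sided and used limma 3.58.1 in R 4.3.3 (lmFit, contrasts.fit, eBayes; intensity trend), fitted to the 9 arrays together, with Benjamini-Hochberg adjustment over 14578 probe sets and a threshold of 0.05. The precision is limited by the number of arrays, 3 per group. Gene names come from the platform annotation: 20393 probe sets had 1 symbol, 691 several and 1606 none listed, and 20364 matched RefSeq. The models were tested on simulated data.

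The genes, lists and tests were chosen with earlier results of these data known. The rule for naming genes of a list admits up to 4 past the threshold per comparison, or the 2 largest where none passed. Not all of these are printed, and the rest are in the counts. The alternatives tried were other scaling, floors, filters and trend, fits with only the 6 arrays compared, array weights or a replicate block, no probe sets of shared binding, averaging the probe sets of a gene, and each array left out in turn.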

Additional observations from a re-analysis of the deposited data

How the results depend on the processing

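The calls of Cish and Pim1 kept their direction and side of the threshold under all 21 alternatives. For Pim1 this holds for its representing probe set, alone or averaged with the second, and the second alone passed in no comparison. The number of the 8 genes that passed between L-GMP and GMP was 1, and 2 with quantile normalization, a floor at the 10th percentile, only the 6 arrays compared or the mean over probe sets, 3 with array weights or the replicate block, and 1 to 3 with single arrays left out. For L-GMP-derived cells against GMP it was 4, and 2 without probe sets of shared binding, which removes those that represent Socs2, Socs3 and Pim3, and 3 to 4 with single arrays left out. Against L-GMP it was 5, and 3 with a filter at the 60th percentile or without probe sets of shared binding, and 3 to 5 with single arrays left out.

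Over all probe sets, 3777 passed between L-GMP and GMP, 1916 with the replicate block and 2353 (without GMP replicate 3) to 4901 with single arrays left out; for L-GMP-derived cells against GMP 3551 passed, 6912 with array weights, 1750 with the replicate block and 2169 (without GMP replicate 3; 2334 without GMP replicate 2) to 4363 with single arrays left out. Whether the replicate numbers pair the samples is not known. Deviations of same-numbered arrays from their group means correlated at -0.309 to 0.170. With 3 arrays per group these deviations are tied to each other, so they cannot exclude a shared mouse or batch. With the block the Stat3 call against L-GMP was lost (adjusted p = 0.0595) and Socs3 and Pim3 passed between L-GMP and GMP (0.00276 and 0.0354).

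Signs that reversed were of differences that had not passed. Socs3 between L-GMP-derived cells and GMP was -0.22 with a floor at the 40th percentile, -0.097 with array weights, -0.59 with the replicate block, -0.24 with the mean over probe sets, and -0.65 to 0.60 with single arrays left out. Between L-GMP-derived cells and L-GMP, Stat5a was 0.060 and Stat5b -0.058 with array weights, and with single arrays left out they ran from -0.14 to 0.023 and from -0.072 to 0.13. With single arrays left out the second probe set of Pim1 ran from -0.0037 to 0.12 (L-GMP-derived cells against GMP), that of Pim3 from -0.16 to 0.0074 (L-GMP against GMP) and that of Stat3 from -0.045 to 0.13 (L-GMP-derived cells against GMP; -0.042 with the replicate block). The change in Stat5a minus Stat5b ran from -0.20 to 0.033 between L-GMP and GMP and from -0.23 to 0.057 between L-GMP-derived cells and L-GMP. The cause was not tested. Socs1, Pim2 and the low levels of Socs2 and Socs3 lie near or below the floor, which limits what could be compared.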
